A study of Mus musculus with 12 samples.

Results

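Heterotrimeric G protein subunits, adenylyl cyclases, regulators of G protein signalling (Rgs) and Gpr-named receptors, the orphan receptor Gpr151 among them, are described here in mouse dorsal root ganglion (DRG) sensory neurons. The 47 genes were taken from the 9073 of the deposited count table by symbol. A symbol qualified when Gpr, Rgs, Gng, Gnb or Adcy stood before a digit, or when it named 1 of 11 G alpha subunits. The rule itself uses no measured value. Of the 140 annotated mouse symbols that meet the rule, the other 93 were not analysed here. The 47 genes are 6 Gpr receptors, 6 other Gpr-named membrane proteins, 10 G alpha, 5 G beta and 8 G gamma genes, 3 adenylyl cyclases and 9 Rgs genes. The beta, gamma and Rgs classes follow the symbol alone, so that Gnb1l is counted with G beta and Rgs7bp with Rgs. Counts were high enough to compare for 43 of them, all except Gpr37l1, Gpr180, Gnb1l and Adcy6.

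All 4 groups came from adult DRG neurons of mice with the genotype RPL22HA+/+;Advillin-Cre+. In such RiboTag mice, Cre driven by the sensory neuron gene Advillin puts a haemagglutinin (HA) tag on ribosomal protein L22. The groups were anti-HA immunoprecipitates (IP) after AAV-shGpr151, an adeno-associated virus with a hairpin RNA named for Gpr151, IP after AAV-control, Input lysate after AAV-shGpr151 and Input lysate after AAV-control. Input holds RNA of every cell in the lysate, and IP the RNA that the anti-HA antibody brought down. The series design speaks of cultured neurons from mice with a conditioning sciatic nerve lesion, whereas the extraction protocol speaks of ganglia freshly collected. The labels do not say which columns came from separate animals or cultures.

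Heptahelical receptors pass a signal by loading GTP onto a G alpha subunit, which then parts from its G beta-gamma pair. Gs and Golf alpha stimulate adenylyl cyclase, Gi alpha inhibits it, and Gq and G11 alpha activate phospholipase C beta. Rgs proteins speed the hydrolysis of GTP on G alpha and so end the signal. In sensory neurons these pathways carry the actions of inflammatory mediators and opioids on excitability, and cyclic AMP is known for its part in axon regrowth after a conditioning lesion.

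The 3 columns of each group hardly differed beyond counting noise. For 2 columns of the same group, chi-square per degree of freedom was 0.597 to 0.935 over the 47 genes and 0.981 to 1.05 over all genes, in 12 such pairs. A group hence stands as a single sample here, with its columns summed. No p-value is given, and every 95% interval covers counting error only. Total counts were 3285258 in IP shGpr151, 4245486 in IP control, 6148538 in Input shGpr151 and 6332991 in Input control. The 47 genes took 0.841% of counts in IP shGpr151 and 0.755% in IP control, against 0.217% in Input shGpr151 and 0.216% in Input control. Their median summed count was 124 in IP shGpr151 and 163 in IP control, against 24 in Input shGpr151 and 29 in Input control, so that ratios against Input are the less precise. A gene is said to be called, or to be higher or lower, where it differed by at least 1.5-fold with an interval that excluded 0 on the log2 scale, among 8312 genes with enough counts.

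Transcripts of Gpr151 (ENSMUSG00000042816), the gene named in the hairpin label, did not differ detectably between the IP libraries. Their columns held 96, 65 and 89 counts in IP shGpr151, against 107, 109 and 98 in IP control. In Input they held 4, 4 and 5 counts in Input shGpr151, against 10, 8 and 6 in Input control. These are 76.1 CPM (counts per 1e6 of the library total) in IP shGpr151 and 74.0 in IP control, and 2.11 CPM in Input shGpr151 and 3.79 in Input control. The log2 ratio of shGpr151 to control was 0.00 (−0.25 to 0.24) in IP and −0.86 (−1.96 to 0.17) in Input, and neither was called. The Input counts could not show a difference of that size. Since Gpr151 was not lower in IP, both shGpr151 libraries are named here only by their label.

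**Figure D1:**
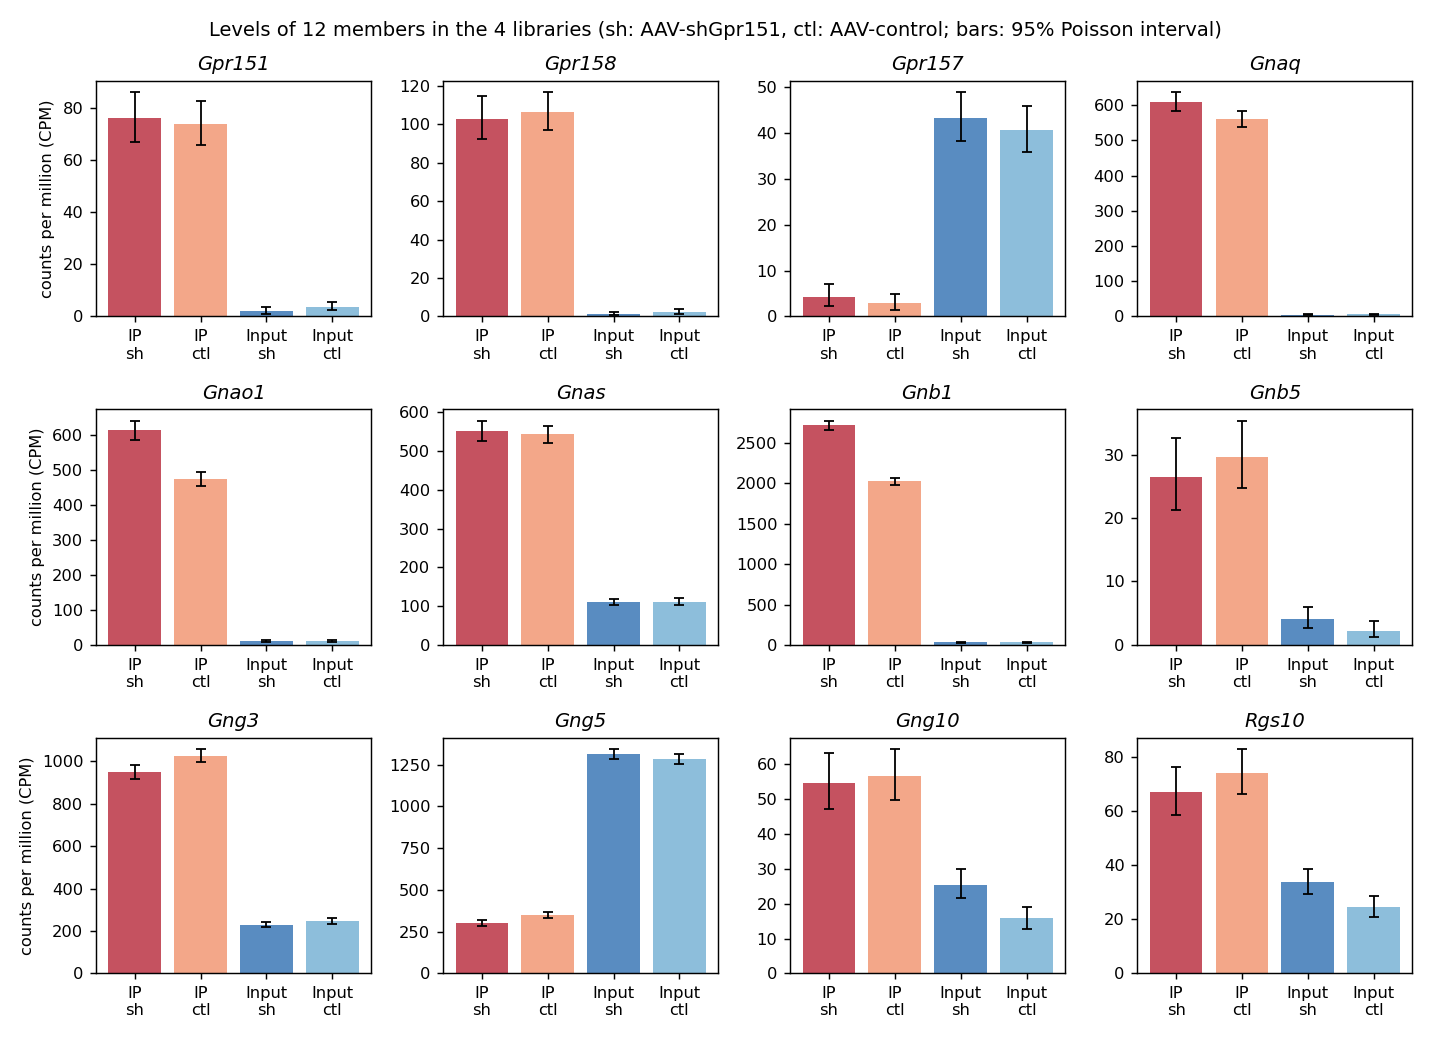
Levels of 12 members in CPM of library total (linear axes from 0, 1 scale per gene), each bar 1 library (sh, shGpr151; ctl, control) with the 95% Poisson interval of its summed count. The Gpr151 bars of the 2 IP libraries, 76.1 CPM in IP shGpr151 and 74.0 in IP control, are level, and the Gng5 and Gpr157 bars are taller in Input.

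IP and Input differed strongly in which subunits of the G protein they held. Relative to the bulk of genes, all 4 G beta transcripts compared had positive log2 ratios of IP to Input and all 8 G gamma transcripts negative ones, although on library totals 4 of the 8 in shGpr151 and 5 in control turned positive. Gng3 and Gng5 stood at the ends of the gamma range, at −0.14 and −4.33 in shGpr151 and −0.12 and −4.05 in control. The 250 bases before the transcription starts of these genes of 1 family are shown as description, and a link of promoter letters to the ratios was not tested. Both are RefSeq sequence of build GRCm38.p6, Gng3 from the minus strand of chr19:8839247-8839496 and Gng5 from the plus strand of chr3:146499586-146499835. Capitals mark the GC box, GGGCGG or its reverse complement CCGCCC.
Gng3: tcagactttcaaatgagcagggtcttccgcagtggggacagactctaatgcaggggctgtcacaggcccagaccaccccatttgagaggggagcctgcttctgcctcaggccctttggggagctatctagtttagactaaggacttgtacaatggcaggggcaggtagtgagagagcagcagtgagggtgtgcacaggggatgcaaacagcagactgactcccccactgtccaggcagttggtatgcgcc
Gng5: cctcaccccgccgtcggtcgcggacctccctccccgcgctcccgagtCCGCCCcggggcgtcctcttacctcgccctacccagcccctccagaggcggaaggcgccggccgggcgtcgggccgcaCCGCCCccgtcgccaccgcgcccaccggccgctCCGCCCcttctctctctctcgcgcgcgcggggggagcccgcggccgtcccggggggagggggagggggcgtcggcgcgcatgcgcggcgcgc
The Gng5 window held 3 GC boxes and 82.4% G or C, and the Gng3 window held 0 boxes and 56.8% G or C. Windows were found for 40 of the 47 genes, 56 windows in all, and 57.1% of these held a GC box on either strand. The share was 32.7% of all 32851 windows of that length, whether or not their gene is in the count table. Members with a GC box include Gnaq, Gnb1, Gpr158 and Rgs17, higher in IP, as well as Gng5 and Gpr157, lower in IP. The letters TATAAA were in 14.3% of the windows of these genes and 12.4% of all windows, and TGACG, the core of the cyclic AMP response element, in 25.0% and 17.8%. The whole element TGACGTCA was in 0 of the 56 windows and in 1.55% of all windows. A match is a string of letters and not a site shown to be used.

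Comparing IP with Input asks which transcripts were on tagged ribosomes. In bulk samples of this kind fewer cells of a type and less RNA per cell cannot be told apart. The trimmed mean of M values (TMM), which sets the bulk of genes near 0, lowered log2 ratios by 2.19 in shGpr151 and by 2.17 in control relative to library totals. Ratios below are on the TMM scale, on which the median of all genes was 0.10 in shGpr151 and 0.06 in control. CPM values are per library total. On the totals scale 37 members were higher and 2 lower in IP in shGpr151, and 38 higher and 2 lower in control, and the 2 lower ones were Gng5 and Gpr157 in both. On the TMM scale 18 members were higher and 9 lower in shGpr151, and 20 were higher and 7 lower in control. That is 62.8% of 43 in each treatment, against a background of 63.5% of all genes in shGpr151 and 61.3% in control, so the share called is near that of any gene. By direction the background was 32.1% higher and 31.5% lower in shGpr151 and 30.5% higher and 30.7% lower in control. The median log2 ratio of the members was 0.61 in shGpr151 and 0.68 in control. The 2 treatments shared 17 of the genes higher in IP, 94.4% of those in shGpr151 and 85.0% of those in control, and 7 of the lower ones, 77.8% of those in shGpr151 and all of those in control, with 0 called in opposite directions.

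Among the Gpr receptors, 2 of 5 were higher and 1 lower in IP in shGpr151, and 3 were higher and 1 lower in control. Gpr158, an orphan receptor that recruits Rgs7 and G beta 5 complexes to the membrane, had 338 counts in IP shGpr151 and 452 in IP control, against 8 in Input shGpr151 and 16 in Input control. Its log2 ratio was 4.11 (3.12 to 5.33) in shGpr151 and 3.22 (2.51 to 4.04) in control, where it was 3.84 without Input control replicate 3. Gpr151, known for its induction in injured sensory neurons, had ratios of 2.97 (2.17 to 3.90) in shGpr151 and 2.11 (1.51 to 2.78) in control. All 6 IP columns of Gpr151 held more counts than all 6 Input columns, though the columns of a group are not separate samples here. Gpr157, an orphan receptor studied in cilia of neural progenitors, went the other way, with 14 counts in IP shGpr151 and 12 in IP control, against 266 in Input shGpr151 and 257 in Input control. Its ratio was −5.54 (−6.43 to −4.77) in shGpr151 and −6.02 (−6.99 to −5.19) in control, the lowest of all members in both treatments. The orphan receptor Gpr19 had 86 counts in IP shGpr151 and 146 in IP control, against 23 in Input shGpr151 and 27 in Input control, with ratios of 0.61 in shGpr151, not called, and 0.84 in control, called. That these ratios differ between treatments was not shown, since the interaction of Gpr19 was −0.23 and not called. Gpr153 was not called in either treatment, and the glial receptor Gpr37l1 had only 9 to 21 counts in any library.

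Membrane proteins with a Gpr name that are not classical surface receptors were mostly higher in IP, 4 of 5 in shGpr151 and 3 of 5 in control, with 1 lower in each. Gpr137b, a lysosomal membrane protein, had 757 counts in IP shGpr151 and 1064 in IP control, against 23 in Input shGpr151 and 39 in Input control. Its ratio was 3.75 in shGpr151 and 3.17 (2.71 to 3.67) in control. Gpr108 and Gpr107, related proteins of the Golgi, were also higher in both, by 1.60 and 1.96 in shGpr151 and by 1.86 and 1.08 in control. Gpr89, a Golgi channel protein, had 26 counts in IP shGpr151 and 29 in IP control, against 3 in Input shGpr151 and 6 in Input control. Its ratio was 1.82 (0.12 to 4.19) in shGpr151, which was called, and 0.68 (−0.62 to 2.24) in control, and the difference between treatments, 1.15 (−0.99 to 3.29), was not called. The call in shGpr151 was lost with DESeq2, without IP shGpr151 replicate 1 and without any 1 of the 3 Input shGpr151 columns. Gpr137 had 35 counts in IP shGpr151 and 60 in IP control, against 35 in Input shGpr151 and 48 in Input control. It was lower on the TMM scale, at −1.29 in shGpr151 and −1.27 (−1.85 to −0.70) in control, and changed sign on library totals, at 0.90 in both.

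G alpha transcripts were called higher in IP for 4 of 10 in shGpr151 and 5 of 10 in control, with 0 lower. Gnaq, which encodes Gq alpha, had 2003 counts in IP shGpr151 and 2380 in IP control, against 30 in Input shGpr151 and 36 in Input control. Its log2 ratio was 4.77 (4.25 to 5.34) in shGpr151 and 4.45 (3.98 to 4.97) in control, the 29th highest of 8312 genes in shGpr151 and the 25th in control. Gnao1, the abundant neuronal Go alpha, had 2013 counts in IP shGpr151 and 2012 in IP control, against 72 in Input shGpr151 and 77 in Input control, with ratios of 3.51 (3.18 to 3.87) in shGpr151 and 3.11 (2.78 to 3.46) in control. Gna11, the close relative of Gnaq, and Gnal, the Golf alpha that stimulates adenylyl cyclase, were called higher as well, by 1.59 and 2.32 in shGpr151 and by 1.57 and 1.23 in control. Gnas, the Gs alpha gene, kept the level of the bulk of genes, with a ratio of 0.13 in shGpr151 and 0.11 (−0.01 to 0.23) in control. Gnai2, Gnai3, Gna12 and Gna13 were not called in either treatment and lay between −0.09 and 0.37 in shGpr151 and between −0.37 and 0.58 in control. Gnai1, a further Gi alpha, lay at 0.66 in shGpr151 and was not called there, but was without IP or Input shGpr151 replicate 1 and on library totals. In control Gnai1 lay at 1.59 and was called. The difference between treatments, −0.93 (−2.20 to 0.34), was not called.

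The makeup of the G alpha pool followed these ratios. Gnas made up 26.4% of G alpha counts in IP shGpr151 and 28.5% in IP control, against 61.8% in Input shGpr151 and 60.0% in Input control. Gnaq made up 29.1% in IP shGpr151 and 29.4% in IP control, against 2.73% in Input shGpr151 and 3.06% in Input control. The share of Gnao1 was 29.3% in IP shGpr151 and 24.9% in IP control, against 6.56% in Input shGpr151 and 6.54% in Input control. Gnas thus took a smaller part of the IP pool than of the Input pool, and Gnaq and Gnao1 a larger one. These shares are of counts not corrected for transcript length, so they compare libraries and not genes.

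**Figure D2:**
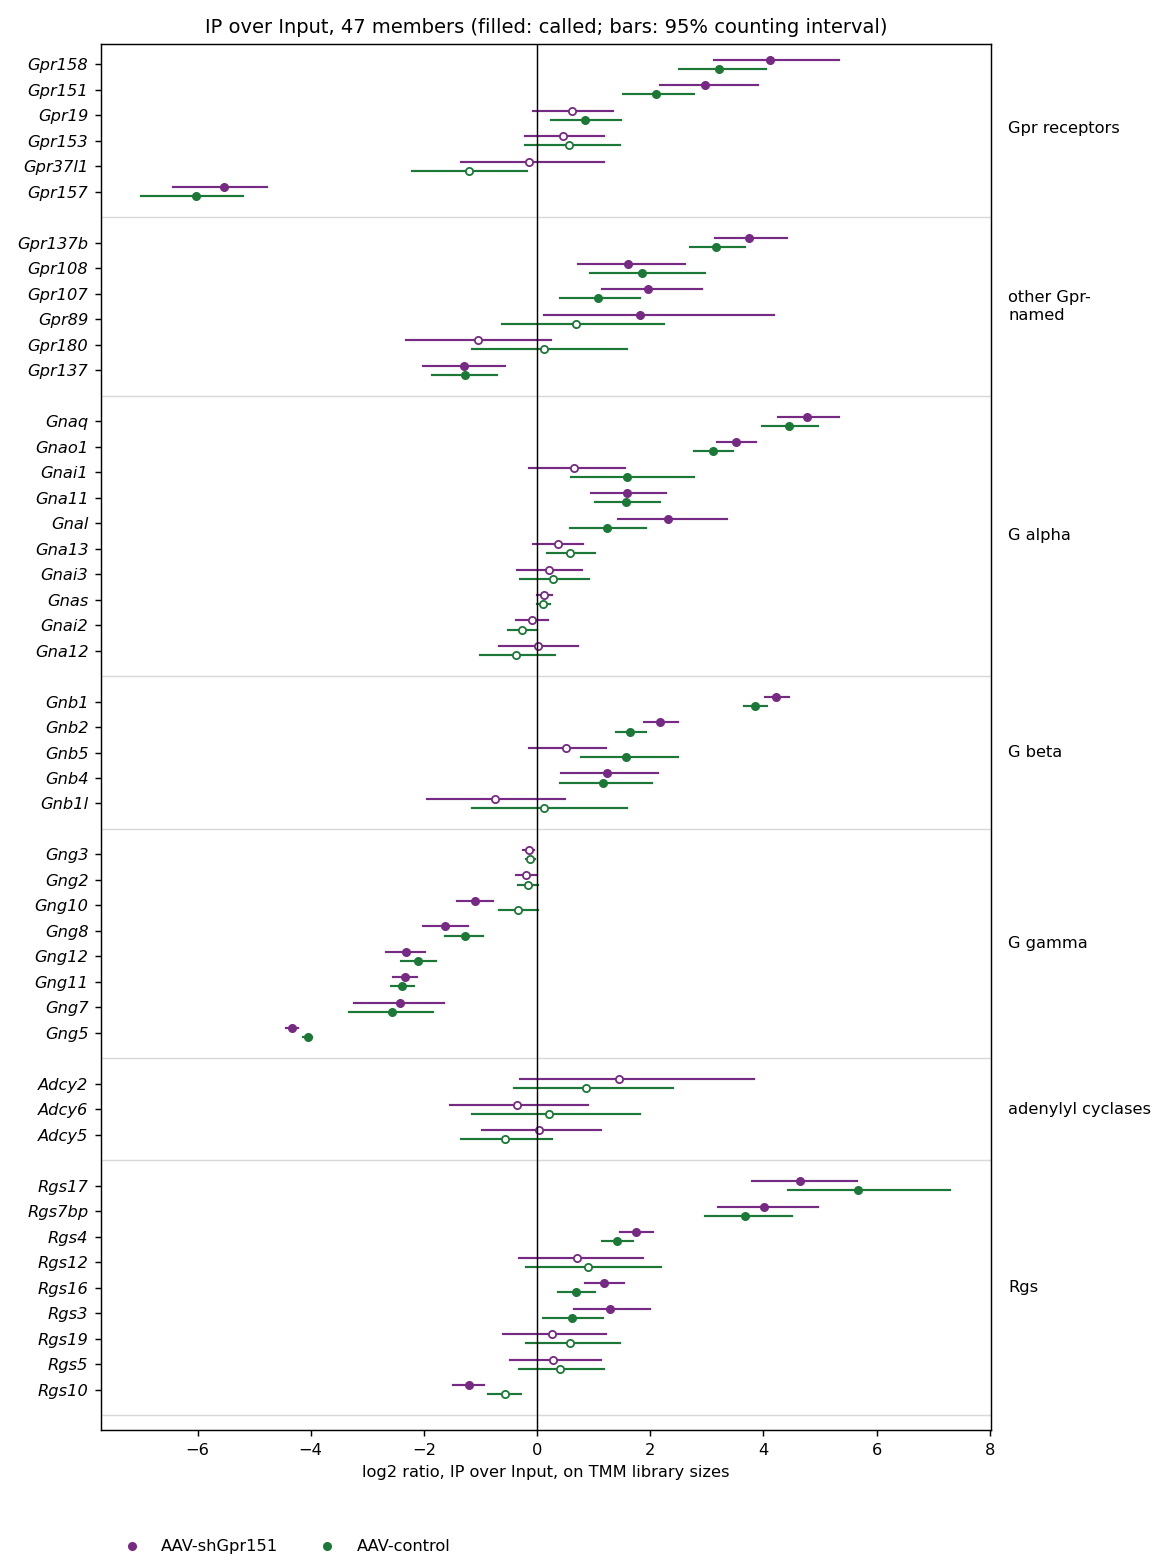
Log2 ratio of IP to Input on the TMM scale for all 47 members, ordered by class, with 95% counting intervals, in shGpr151 and in control, filled where called. The 4 G beta genes with enough counts lie right of 0 and the 8 G gamma genes left of it in both treatments, whereas on library totals 4 of the 8 in shGpr151 and 5 in control turn positive.

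G beta transcripts were higher in IP, 3 of 4 in shGpr151 and 4 of 4 in control. Gnb1 carried the class, with 8923 counts in IP shGpr151 and 8603 in IP control, against 194 in Input shGpr151 and 197 in Input control. Its ratio was 4.23 (4.03 to 4.45) in shGpr151 and 3.85 (3.65 to 4.06) in control, which is 18.8-fold and 14.4-fold. Gnb2 had 1133 counts in IP shGpr151 and 1251 in IP control, against 102 in Input shGpr151 and 132 in Input control, with ratios of 2.18 in shGpr151 and 1.65 in control. Gnb4 lay at 1.23 in shGpr151 and 1.17 in control. Gnb5, the divergent beta subunit that pairs with Rgs7-type proteins, lay at 0.51 (−0.15 to 1.21) in shGpr151, not called, and at 1.57 (0.77 to 2.49) in control, called, and the difference between treatments is given with the interaction.

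G gamma transcripts ran the other way on the TMM scale, with 6 of 8 called lower in IP in shGpr151, 5 of 8 in control and 0 higher, and of these only Gng5 stayed lower when scaled to library totals. Gng5, a widely expressed gamma subunit, had 984 counts in IP shGpr151 and 1483 in IP control, against 8081 in Input shGpr151 and 8134 in Input control. Its ratio was −4.33 (−4.43 to −4.23) in shGpr151 and −4.05 (−4.13 to −3.97) in control. It was among 455 genes at least 16-fold lower in IP in shGpr151 and 484 in control, of which 2 in each were members, Gng5 and Gpr157. Gng7, a gamma subunit that pairs with Golf in striatal neurons, lay at −2.42 in shGpr151 and −2.57 in control on 21 to 49 counts a library. Gng11, Gng12 and Gng8 were lower in both treatments too, between −2.33 and −1.62 in shGpr151 and between −2.38 and −1.28 in control. Gng3, the gamma subunit best known from neurons, held 3123 counts in IP shGpr151 and 4355 in IP control, against 1411 in Input shGpr151 and 1561 in Input control. Its ratio was −0.14 in shGpr151 and −0.12 (−0.20 to −0.03) in control, and that of Gng2, another subunit abundant in brain, was −0.19 in shGpr151 and −0.16 in control.

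The gamma pool was thus a different one in IP and in Input. Gng5 made up 17.7% of G gamma counts in IP shGpr151 and 19.0% in IP control, against 73.8% in Input shGpr151 and 72.9% in Input control. Gng3 made up 56.1% in IP shGpr151 and 55.9% in IP control, against 12.9% in Input shGpr151 and 13.98% in Input control. Per library total the 8 gamma genes summed to 1695 CPM in IP shGpr151 and 1837 in IP control, against 1780 in Input shGpr151 and 1763 in Input control. On the TMM scale that sum was lower in IP, with log2 ratios of −2.27 (−2.31 to −2.22) in shGpr151 and −2.11 (−2.16 to −2.07) in control. The summed level of the 5 beta genes was 3118 CPM in IP shGpr151 and 2382 in IP control, against 56.4 in Input shGpr151 and 57.8 in Input control. Beta counts per gamma count were 1.84 in IP shGpr151 and 1.30 in IP control, against 0.0317 in Input shGpr151 and 0.0328 in Input control. That ratio of ratios was 5.86 (5.70 to 6.02) on the log2 scale in shGpr151 and 5.31 (5.15 to 5.46) in control and needs no scaling between libraries. It rested largely on a pair of genes, since without Gng5 and Gnb1 it was 2.43 in shGpr151 and 2.10 in control.

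**Figure D3:**
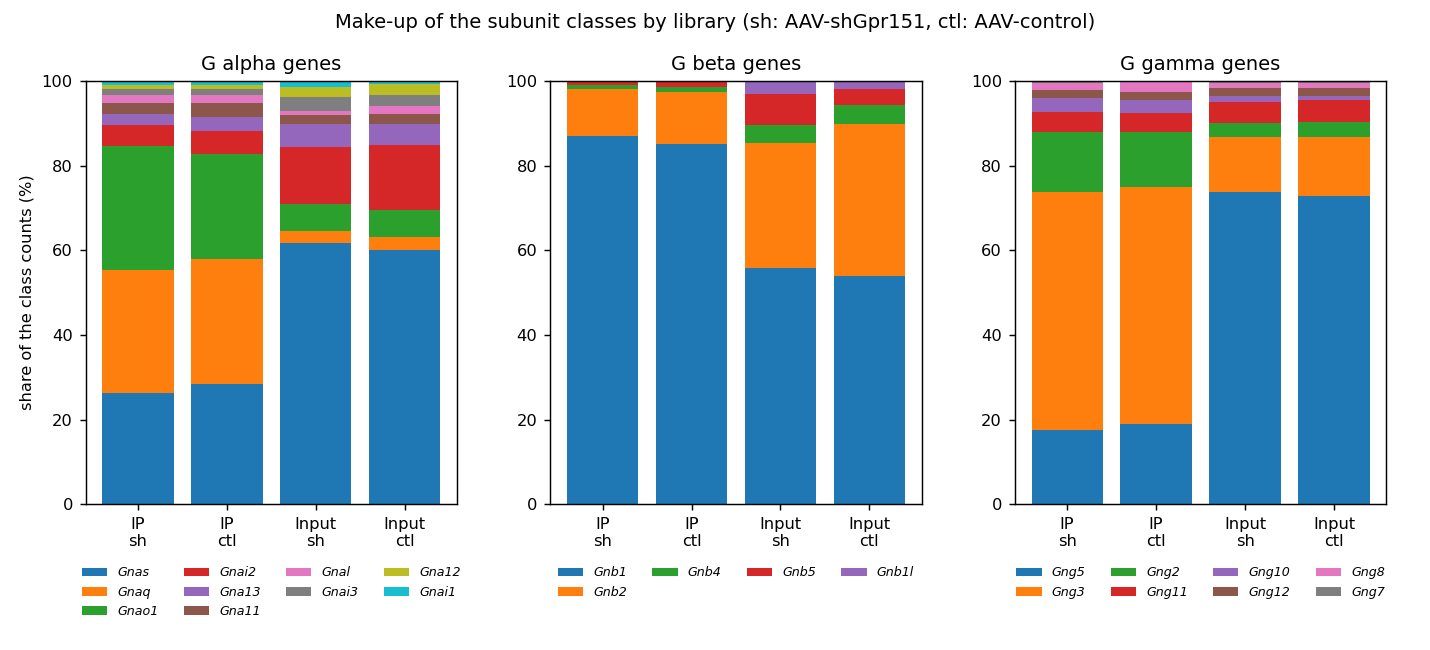
Percent of counts within G alpha, G beta and G gamma that each gene took in the 4 libraries. Gng5 fills 17.7% of the gamma bar in IP shGpr151 and 19.0% in IP control, against 73.8% in Input shGpr151 and 72.9% in Input control.

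Rgs transcripts were higher in IP for 5 of 9 in each treatment, with 1 lower in shGpr151. Rgs17, a small member that acts on Gi, Go and Gz alpha, had 670 counts in IP shGpr151 and 771 in IP control, against 11 in Input shGpr151 and 5 in Input control. Its log2 ratio was 4.64 (3.79 to 5.65) in shGpr151 and 5.67 (4.44 to 7.30) in control, the 37th highest of all genes in shGpr151 and the 5th in control, the value in control resting on 5 Input counts. Rgs7bp, which anchors Rgs7-type proteins at the membrane, had 472 counts in IP shGpr151 and 620 in IP control, against 12 in Input shGpr151 and 16 in Input control, with ratios of 4.01 in shGpr151 and 3.68 (2.97 to 4.50) in control, where it was 4.28 without Input control replicate 2. Rgs4, Rgs16 and Rgs3, which act on Gi and Gq alpha, were called higher in both treatments, by 1.75, 1.18 and 1.29 in shGpr151 and by 1.41, 0.69 and 0.62 in control. Rgs3 lost its call in control with DESeq2, with an assumed biological variation of 10%, at a 2-fold minimum and without Input control replicate 3. Rgs5, Rgs12 and Rgs19 were not called. Rgs10, a small regulator of Gi alpha, was the member of the class below 0 on the TMM scale though above it on library totals, at −1.21 (−1.49 to −0.93) in shGpr151 and −0.57 (−0.86 to −0.29) in control, and was called in shGpr151.

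Adenylyl cyclases, which make cyclic AMP, were near the limit of counting. Adcy5 had 30 counts in IP shGpr151 and 43 in IP control, against 12 in Input shGpr151 and 21 in Input control. Adcy2, an isoform stimulated by G beta-gamma, had 20 in IP shGpr151 and 33 in IP control, against 3 in Input shGpr151 and 6 in Input control. Neither was called in any comparison, and a difference was not detectable at this depth.

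Markers of other cell types were present beside these genes in both fractions. The 16 of 16 sensory neuron markers in the table summed to 17370 CPM in IP shGpr151 and 17920 in IP control, against 1319 in Input shGpr151 and 1134 in Input control. The 9 of 9 satellite glia markers summed to 5450 CPM in IP shGpr151 and 5637 in IP control, against 5395 in Input shGpr151 and 5820 in Input control, and their median TMM ratio was 0.46 in shGpr151 and −0.55 in control. Summed levels of the others are given with shGpr151 before control. The 6 of 8 Schwann markers had 1254 and 1339 CPM in IP and 376.5 and 441.2 in Input, with median TMM ratios of −1.21 and −1.76. The 10 of 11 macrophage markers had 562 and 539 CPM in IP and 495 and 466 in Input, with medians of −1.65 and −1.52. The 5 of 6 fibroblast markers had 709 and 546.5 CPM in IP and 74.7 and 92.4 in Input, with medians of 1.65 and 0.58. The 6 of 8 endothelial and mural markers had 345.5 and 352 CPM in IP and 228 and 170 in Input, with medians of −0.93 and −0.98. Each gene in the table has at least 1 count in every column, so none of these markers was at 0, and Ncmap, Prx, Cd74, Pdgfra, Kdr and Pecam1 were not analysed here. The part of these cells in the results was not tested.

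The comparison of shGpr151 with control asks what followed the hairpin virus. In IP, 0 of 43 members were called, against a background of 3.37% of all genes, 2.29% higher and 1.08% lower. The median log2 ratio was −0.04 over the members, with a range of −0.48 to 0.55, and the median size of the ratio regardless of sign was 0.18 for the members and 0.18 for all genes. Smaller differences stood out from counting noise in 12 members, 6 upward and 6 downward, which is 27.9% of the members beside 20.2% of all genes. Gnb1 had 2716 CPM in IP shGpr151 and 2026 in IP control, a log2 ratio of 0.38 (0.34 to 0.42). Gnao1 had 613 CPM in IP shGpr151 and 474 in IP control, a ratio of 0.33 (0.24 to 0.42). Rgs16, Rgs4, Gnb2 and Gpr153 lay at 0.35, 0.25, 0.18 and 0.50. Gng8, Gpr19, Gna11, Gng5, Gpr137b and Gng3 lay at −0.48, −0.44, −0.30, −0.26, −0.16 and −0.15. None of the 12 reached 1.5-fold, although Gpr153 did so, and was the 1 member called, without IP control replicate 1 or without IP shGpr151 replicate 1. Gnaq and Gnas lay at 0.08 and −0.02, with intervals that held 0.

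Summed over a class, these differences stayed small in IP. The beta genes together had a log2 ratio of 0.35 (0.31 to 0.39) and the gamma genes −0.16 (−0.21 to −0.11), and beta counts per gamma count were higher in shGpr151 by 0.50 (0.44 to 0.57). In Input the same quantity was −0.05 (−0.26 to 0.17). In IP it was 0.48 without Gng5, 0.29 (0.18 to 0.41) without Gnb1 and 0.27 (0.15 to 0.39) without both, settings chosen after seeing the data. Of the single beta genes in IP, Gnb1 and Gnb2 lay at 0.38 and 0.18. Gnb4 and Gnb5 lay at −0.01 and −0.21, with intervals that held 0. The summed Gi and Go alpha genes lay at 0.25 (0.17 to 0.33) in IP and the summed Rgs genes at 0.11 (0.04 to 0.18). Gnao1, at 0.33, held 2013 of the 2516 Gi and Go alpha counts in IP shGpr151. Gnai1, Gnai2 and Gnai3 lay at −0.08, −0.09 and 0.20, with intervals that held 0. Of the 9 Rgs genes 4 had positive and 5 negative ratios in IP, with a median of −0.03. With 1 sample a group, variation between animals or cultures is unknown, and differences of this size cannot be set against it. Beside them, 5 fibroblast markers had a median of 0.43 and the neuron markers 0.06 in IP, and the part of such cells was not tested.

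**Figure D4:**
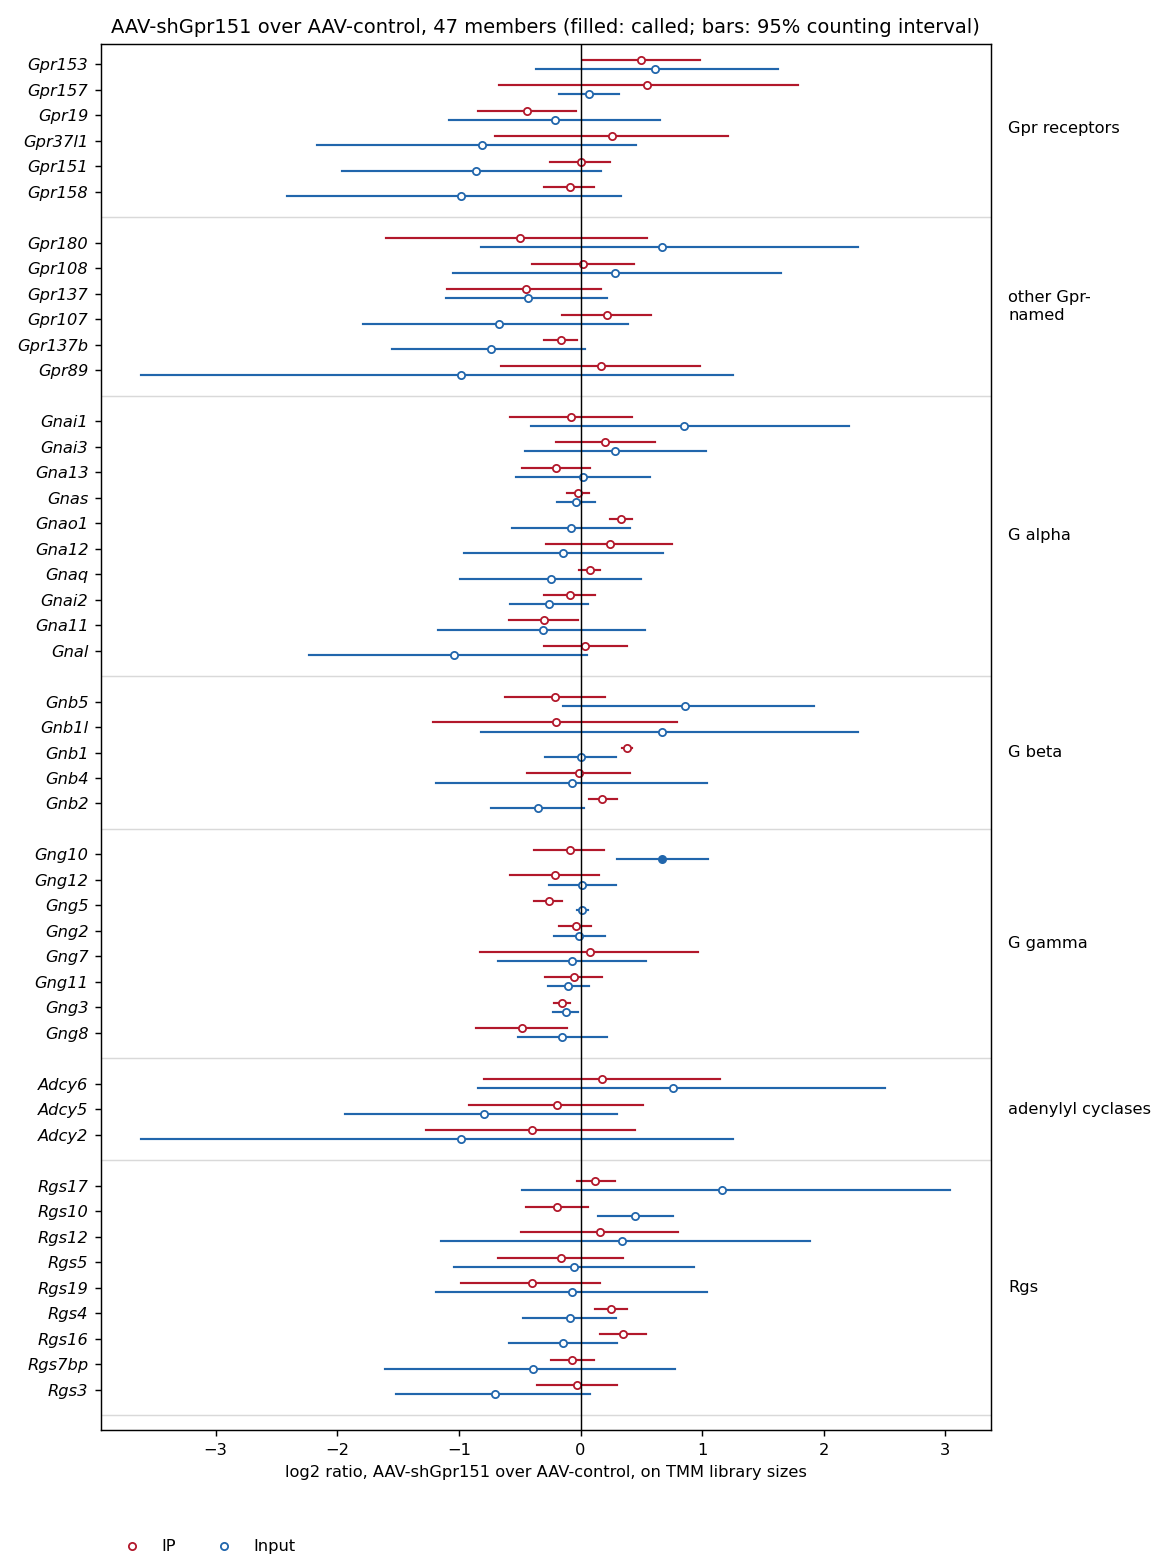
Log2 ratio of shGpr151 to control for all 47 members in IP and in Input, with 95% counting intervals, filled where called. No IP point is filled, and Gng10, at 0.67, is the filled one in Input.

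In Input, 1 of 43 members was called, 2.33% against a background of 9.1% of all genes, 4.32% higher and 4.78% lower. It was Gng10 (ENSMUSG00000038607), a gamma subunit able to pair with several betas. Its columns held 47, 57 and 53 counts in Input shGpr151, against 31, 39 and 30 in Input control. The levels were 25.5 CPM in Input shGpr151 and 15.8 in Input control, a log2 ratio of 0.67 (0.30 to 1.05). In IP its columns held 61, 58 and 61 counts in IP shGpr151, against 83, 77 and 81 in IP control, with a ratio of −0.09 (−0.38 to 0.19). Rgs10 had the next clearest ratio in Input, with 71, 72 and 65 counts in Input shGpr151, against 50, 55 and 50 in Input control, at 0.45 (0.14 to 0.76), short of 1.5-fold. With Gng3 at −0.12 (−0.23 to −0.02), these were the 3 members with intervals off 0, 6.98% against 24.7% of all genes. Other members had ratios as large on far fewer counts, such as Rgs17 at 1.16 (−0.48 to 3.04) on 11 counts in Input shGpr151 and 5 in Input control, and Gnal at −1.04 (−2.23 to 0.05) on 11 in Input shGpr151 and 23 in Input control. Without Input control replicate 1, Gnai1 and Gnal were called besides, 3 members in all, and Rgs3 was without Input shGpr151 replicate 1. The median log2 ratio was −0.09 over the members and −0.07 over all genes.

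The difference between the hairpin ratios of IP and Input was called for 3 members, all lower, which is 6.98% against 15.9% of all genes, 8.73% higher and 7.13% lower. It was −0.77 (−1.22 to −0.31) for Gng10 and −0.64 (−1.03 to −0.25) for Rgs10, whose IP columns held 62, 74 and 84 counts in IP shGpr151, against 117, 97 and 101 in IP control. It was −1.07 (−2.09 to −0.04) for Gnb5, on 87 counts in IP shGpr151, 126 in IP control, 25 in Input shGpr151 and 14 in Input control. The value for Gnb5 rests on few Input counts, and it was no longer called without IP shGpr151 replicate 2, Input shGpr151 replicate 2 or 3, or Input control replicate 1 or 3, with values of −1.28 to −0.83 over all such fits. Rgs10 lost its call without IP control replicate 1 (−0.55) or IP shGpr151 replicate 1 (−0.53). For Gpr151 the difference was 0.86 (−0.14 to 1.86), and it was called, at 1.01, without IP shGpr151 replicate 2. Gnb1, Gnb2 and Rgs16 had positive differences of 0.38, 0.53 and 0.49 and Gng5 one of −0.28, with intervals off 0 but under 1.5-fold. That makes 7 of 43 members off 0, 16.3% against 25.0% of all genes.

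By profile over the 4 libraries, the members nearest to Gpr151 were Gnb2, Gnal, Gpr137b, Gnao1 and Gpr107, at Euclidean distances of 0.74, 0.78, 0.93, 0.98 and 1.04 between centred log2 CPM values. These profiles rest on 4 points.

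Genes that act next to these proteins were called with the hairpin in some lists and not in others. The share called in IP was 7.69% for protein kinase A, CREB and cyclic AMP signalling and 14.3% for phospholipase C beta and protein kinase C. It was 8.0% for other heptahelical receptors and 11.1% for GIRK channels and MAP kinases. Each of these is 1 or 2 genes, beside a background of 3.37% of all genes, 2.29% higher and 1.08% lower. In IP, where the median log2 ratio of all genes was 0.00, 0 of 5 receptor kinases and arrestins were called, with a median of 0.29 and all 5 ratios positive, and 0 of 9 G protein chaperones and modulators, with a median of −0.01. Among 26 genes of protein kinase A, CREB and cyclic AMP signalling, 1 was higher, the anchoring protein Akap1 at 0.95, and 1 lower, the transcription factor Creb1 at −0.63, with a median of 0.15 over the list. Akap1 had 40 counts in IP shGpr151 and 26 in IP control, and Creb1 35 in IP shGpr151 and 68 in IP control. Among 14 genes of phospholipase C beta, protein kinase C and IP3 receptors, 2 were higher, Prkce and the diacylglycerol kinase Dgkd at 0.66 each, and the median was 0.07. Prkce, the epsilon isoform of protein kinase C known for its part in nociceptor sensitisation, had 486 counts in IP shGpr151 and 385 in IP control, a ratio of 0.66 (0.47 to 0.86). Of 25 other heptahelical receptors 2 were higher, Cx3cr1, the fractalkine receptor of macrophages, at 1.39 on 23 counts in IP shGpr151 and 11 in IP control, and Smo at 0.83. Among 9 genes of GIRK channels and MAP kinase signalling, the kinase Braf was higher at 0.92, and 0 of 7 phosphodiesterases were called.

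In Input the same lists gave 5 genes higher and 3 lower, beside a background of 9.1% of all genes, 4.32% higher and 4.78% lower. By list the share called was 11.1% for chaperones and modulators, 7.69% for protein kinase A and 14.3% for phospholipase C beta. It was 4.0% for other heptahelical receptors, 22.2% for GIRK channels and MAP kinases, and 0 for receptor kinases and arrestins and for phosphodiesterases. Pip5k1a, which makes the phospholipid that phospholipase C cleaves, had 178 counts in Input shGpr151 and 68 in Input control, a ratio of 1.41. Pdcl3, of a family of folding helpers, had 183 in Input shGpr151 and 114 in Input control, a ratio of 0.70. Pkig, an inhibitor of protein kinase A, the anchoring protein Akap6 and the small GTPase Nras were higher too, at 0.78, 0.77 and 0.81. The lower ones were Hras at −0.87, the diacylglycerol kinase Dgkh at −1.28 and the adhesion receptor Adgra2 at −1.66 on 5 counts in Input shGpr151 and 16 in Input control. Between IP and Input most of these lists held genes called in both directions. Those of receptor kinases and arrestins and of GIRK channels and MAP kinases held only genes called higher. Of 5 receptor kinases and arrestins 2 were higher and 0 lower in each treatment, Grk2 at 2.09 in shGpr151 and 2.20 in control and Arrb1 at 2.41 in shGpr151 and 1.88 in control. Of the 26 genes of protein kinase A, CREB and cyclic AMP signalling, 14 were higher and 6 lower in shGpr151 and 12 higher and 6 lower in control, with medians of 0.96 and 0.67. Among its anchoring proteins Akap13 lay at 4.76 (3.62 to 6.21) in shGpr151 and 3.51 (2.62 to 4.59) in control. These 2 values rest on 6 counts in Input shGpr151 and 10 in Input control. Akap10 lay at −4.51 in shGpr151 and −4.24 in control. Akap5 lay at −3.52 in shGpr151 and −4.41 in control, a difference of 0.89 (0.72 to 1.07) that was called. Of the 14 genes of phospholipase C beta, protein kinase C and IP3 receptors, 6 were higher and 3 lower in shGpr151. In control 7 were higher and 3 lower. There Prkce lay at 3.41 (2.59 to 4.37) on 12 counts in Input control. Prkci, another protein kinase C, lay at −3.14 in control and the diacylglycerol kinase Dgke at −3.99. The background stays 63.5% of all genes in shGpr151 and 61.3% in control.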

How the data were processed

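RNA of 12 samples was sequenced from nanopore libraries made, per the labels' protocols, by PCR amplification of barcoded cDNA. Named in the submitters' processing notes are GRCm39, mm39, minimap2 and Salmon, without versions or roles. The authors deposited raw whole-number counts per Ensembl gene, the lowest being 1. How reads shared by paralogs, named pseudogenes (of Gnb1, Gng2, Gng5 and Gpr137b) or overlapping genes (such as Bscl2 for Gng3, Bad for Gpr137, Crebl2 for Gpr19 and the antisense Gnasas1 for Gnas) were counted is not stated, nor is the use of strand, which leaves those values uncertain. Symbols matched 9061 of the IDs and 12 had none.

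The 3 columns of a group were summed to 1 sample. Same-numbered columns did not deviate together (correlations of −0.0125 to 0.0233 over 18 pairs). Columns that differ by counting noise alone would give such values with or without a shared source, so this cannot decide whether the numbers pair. Column totals ran from 1094523 to 2111544 counts. Ratios are of summed counts over TMM effective library sizes (edgeR 4.0.16, R 4.3.3) for the 8312 genes that filterByExpr kept at a minimum count of 10, with exact conditional binomial 95% intervals (scipy 1.17.1) and a Wald interval for the interaction. The libraries were amplified by PCR and no molecular identifiers were used, so counts are not independent molecules. The scripts were tested on simulated data.

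Full values were given to Gpr151, to members called in a hairpin comparison or the interaction, and to the 2 called members of each class with the largest ratio of IP to Input in each direction, and from other pathway lists at most 3 called genes per comparison. Members and lists were chosen with earlier results of these data known. Alternatives were edgeR and DESeq2 1.42.0 on the columns, RLE factors, library totals, other filters, folds of 1 and 2, an assumed biological variation (BCV) of 10%, the replicate block and each column left out. Transcript length was not analysed. Figures were drawn with matplotlib 3.10.9.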

Additional observations from a re-analysis of the deposited data

Results flagged for a closer look

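For 3 genes the ratio of the library labelled shGpr151 to control differed between IP and Input beyond counting error, in single libraries and with the variation between animals or cultures unknown. The difference of log2 ratios, IP minus Input, was −1.07 for Gnb5, −0.77 for Gng10 and −0.64 for Rgs10. Gnb5 rests on 25 counts in Input shGpr151 and 14 in Input control. In Input Gng10 was called higher in shGpr151 and Rgs10 fell short of 1.5-fold, and in IP the intervals of all 3 genes held 0. This is 6.98% of the members compared, beside 15.9% of all genes, and with an assumed BCV of 10% none of the 3 was called by edgeR (1 member at an unadjusted p under 0.05).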

How the results depend on the processing

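With 1 sample a group, nothing here measures variation between animals or cultures, and the depth of Input, with 19 members under 20 counts in shGpr151 and 16 in control, limits ratios against it. For the hairpin in IP, where 0 members were called, the counting interval alone gave 12, edgeR on the columns 6 (12 at an unadjusted p under 0.05), DESeq2 4, and leaving out each column in turn 0 to 1. That one was Gpr153, without IP control replicate 1 or without IP shGpr151 replicate 1. For the hairpin in Input, where 1 was called, a 2-fold minimum gave 0, an assumed BCV of 10% in an edgeR likelihood ratio test 0 (1 at an unadjusted p under 0.05), the interval alone 3, edgeR 2, and leaving out columns 1 to 3, with Gnai1 and Gnal added without Input control replicate 1 and Rgs3 without Input shGpr151 replicate 1. For the interaction, where 3 were called, a 2-fold minimum gave 1, the interval alone 7, the assumed BCV 0, and leaving out columns 2 to 4. Rgs10 then lost its call without IP control replicate 1 (−0.55) or without IP shGpr151 replicate 1 (−0.53), and Gnb5 in 5 such fits. Calls were gained by Gnal in 4 such fits and on library totals, and by Gpr151 (1.01, without IP shGpr151 replicate 2), Gnai1, Gpr107, Rgs3 and Gnb2 in 1 fit each. With edgeR and with DESeq2 on the columns the count was also 3, but with Gng5 in place of Gnb5. The log2 ratio of beta per gamma counts in IP over Input was 4.20 in shGpr151 and 3.73 in control without Gng5, 4.09 and 3.68 without Gnb1, and 2.43 and 2.10 without both. These were chosen after seeing the data. On library totals Gpr137 reversed to 0.90 in shGpr151 and 0.90 in control, since every ratio moves by the scaling itself, and Gng7 lay at −0.23 and −0.39, no longer called. Leaving out columns gave 26 to 27 calls between IP and Input in shGpr151 and 27 to 30 in control. With the replicate number as a block, edgeR called 6 members in IP, 2 in Input and 3 in the interaction, as without it. The columns differ by counting noise, so these edgeR and DESeq2 calls compare libraries. The cause of the other changes was not tested.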
